A study of Mus musculus with 9 samples.

Results

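The mitochondrial respiratory chain and ATP synthase were followed through the probes for their nuclear-encoded subunits. Probes were taken by gene symbol from the platform annotation, with symbols beginning Nduf (assembly factors named Ndufaf left out), Sdha to Sdhd, Uqcr, Cox4 to Cox8, Cyc1 or Atp5. This gave 120 probes of 81 genes, out of 21945 genes with a symbol on the array. A probe was analysed where its detection p was under 0.05, that is, where it lay above background, on at least 3 of the 9 arrays. By that rule 103 probes of 74 genes passed, among 12246 genes with a passing probe. They comprised 48 probes of 34 genes for complex I, 6 of 4 for complex II, 9 of 8 for complex III, 16 of 12 for complex IV and 24 of 16 for complex V. The symbol rule also took in Ndufs5-ps, a pseudogene by its symbol, which is counted with complex I.

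The arrays were single-colour Illumina beadchips of macrophages sorted from lungs of female C57/BL6 mice, 8 weeks old, by SiglecF and CD11b, in 3 groups of 3. Hom int pop cells are of the genotype Pparg-/-.LysMCre and labelled Pparg deficient alveolar macrophages. Hom Mph cells carry the same mouse genotype, Pparg-/-.LysMCre, but are labelled wild type. Het Mph cells have the genotype Pparg-/+.LysMCre and, like Hom Mph, a wild type label. All 3 groups therefore carry the Cre, which is driven by the LysM promoter and so acts in cells of the myeloid lineage. The titles use the same names, Hom1 to Hom3, for Hom Mph and Hom int pop, but the labels do not say whether a name is 1 mouse. The p-values therefore reflect no more than the spread from sample to sample, which may be technical, and the number of arrays limits the precision. The Hom int pop arrays were on a slide of their own and the 6 others shared a slide, so slide and group cannot be told apart in any comparison of Hom int pop.

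Complexes I and II pass electrons from NADH and succinate to ubiquinone, complex III passes them to cytochrome c, and complex IV passes them to oxygen. Complexes I, III and IV pump protons across the inner membrane, and complex V, the ATP synthase, uses the gradient to make ATP. Alveolar macrophages live in an oxygen-rich, surfactant-laden space and depend on PPARg, a lipid-sensing nuclear receptor, for their maturation. Most subunits are encoded in the nucleus, and several complex IV subunits exist as isoforms for particular tissues.

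No respiratory chain probe differed between any of the groups at an adjusted p under 0.05 (limma, Benjamini-Hochberg over 21946 probes). The count was 0 of 103 in each of the 4 comparisons, namely Hom int pop against both control groups averaged, Hom int pop against Het Mph, Hom int pop against Hom Mph, and Hom Mph against Het Mph. Over all probes tested, 0.688% were called against both controls, 1.02% against Het Mph, 0.173% against Hom Mph and 0.0228% between Hom Mph and Het Mph. At such shares about 1 subunit probe or none would be called in any comparison. At an unadjusted p under 0.05, 1 of the 103 probes passed against both controls, where 12.1% of all probes did, and 2 passed against Het Mph, where 13.4% did. Against Hom Mph 2 passed, where 7.81% of all probes did, and between Hom Mph and Het Mph 5 passed, where 6.38% did.

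The intervals set how large a difference could have gone unseen. Against both controls, the 95% interval of the limma log2 difference lay within 1 of 0, a 2-fold change either way, for 79 of 103 subunit probes (76.7%). For all probes tested that share was 35.3%. Among the 90 subunit probes above background on all 9 arrays it held for 78 (86.7%), against 54.3% of such probes in general. It held for 65.0%, 66.0% and 67.0% of the 103 probes in Hom int pop against Het Mph, Hom int pop against Hom Mph and Hom Mph against Het Mph. A 2-fold difference thus lay outside the interval for most subunit probes. The median standard error against both controls was 0.24 on the log2 scale, so differences well under 2-fold were not resolved at 3 arrays a group. The median moderated SD of the subunit probes was 0.34, against 0.50 for all probes. The subunit probes were also brighter, with a median mean log2 signal of 8.88 against 6.29, and the part of brightness in their lower SD was not tested.

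**Figure D1:**
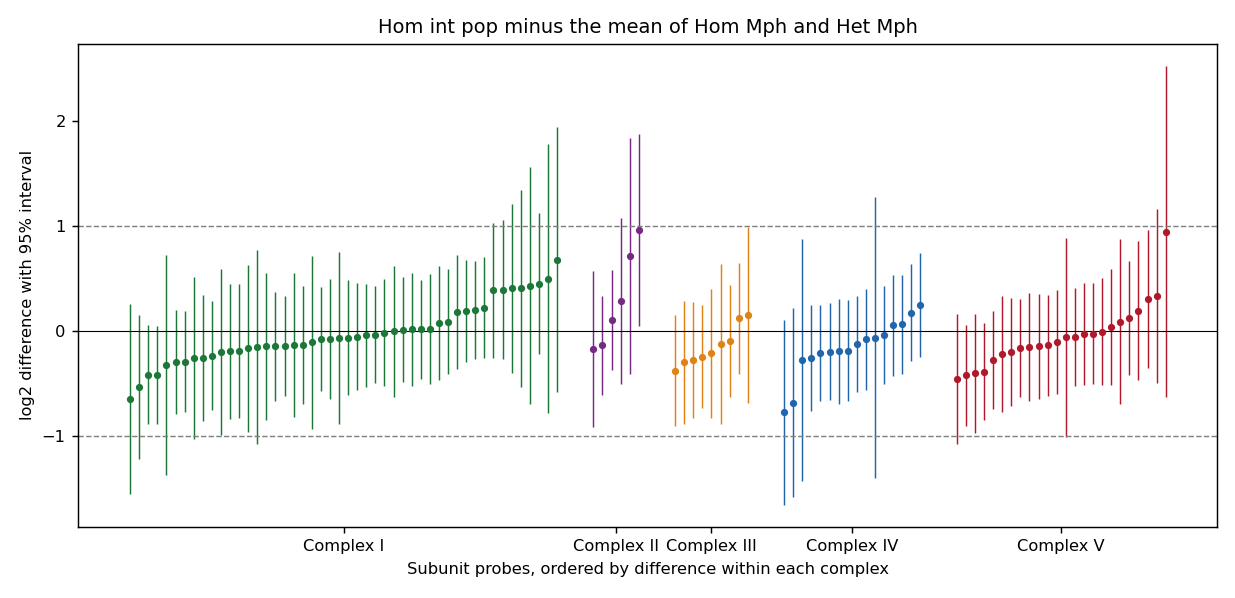
Log2 difference of Hom int pop minus the mean of both control groups for the 103 subunit probes, ordered within each complex. Points are limma estimates, bars are 95% intervals over 9 arrays and dashed lines mark a 2-fold change; 79 intervals lie inside the dashed lines.

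In the main analysis, though not under every alternative, the median difference over the subunits was within 0.05 of that of all probes in each comparison. Against both controls it was -0.077, beside -0.069 for all probes, and against Het Mph it was -0.10, beside -0.11. Hom int pop minus Hom Mph gave a median of -0.073, beside -0.036, and Hom Mph minus Het Mph gave -0.025, beside -0.068. Over the 90 subunit probes above background everywhere, the median against both controls was -0.10, beside -0.058 for 10635 such probes. Array by array, the median deviation of the 103 probes from their means over the 9 arrays was -0.070 to -0.029 in Hom int pop and -0.011 to 0.069 in the controls. The Hom int pop arrays were thus all below the control arrays, by a small margin, as they were for complexes III, IV and V taken singly. They overlapped for complexes I and II and for all probes tested, where the medians were -0.060 to 0.032 in Hom int pop and -0.081 to 0.086 in the controls. The pooled SD within groups of the array medians of the 103 probes was 0.030. In these bulk samples a lower signal from the separate slide, from fewer cells of a type or from less RNA per cell cannot be told apart.

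By complex, the medians against both controls were -0.064 for complex I, 0.19 for complex II, -0.21 for complex III, -0.15 for complex IV and -0.080 for complex V. The value for complex II rests on 6 probes, and the higher ones among them are dim. Of 23 genes with several passing probes, 7 had probes of both signs against both controls, Sdhc, Cox6a1 and Atp5o among them, so a difference of this size was often not shared by probes of 1 gene.

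**Figure D2:**
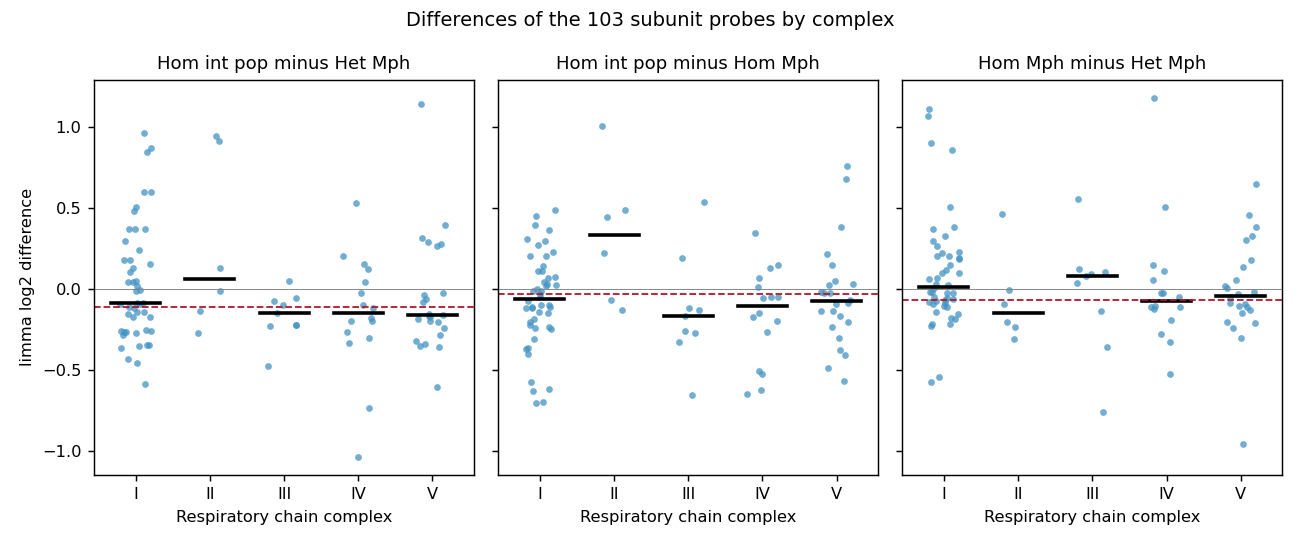
Limma log2 differences of the 103 subunit probes in 3 comparisons, by complex, with 1 point per probe. Black bars are the complex medians and the dashed line is the median of all 21946 probes tested, which lies within 0.12 of 0 in each panel.

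Probes of widely expressed isoforms of complex IV were above background on more arrays than those of most tissue-restricted ones, with Cox7a2 and Cox8b as exceptions. Detection also depends on the probe, as 1 Cox5b probe was above background on 0 arrays and another on 9. The counts therefore do not rank the isoforms by expression. Single probes of Cox4i1 and Ndufa4 and both probes of Cox6a1, Cox6b1 and Cox7a2l were above background on 9 of 9 arrays. Ndufa4, first assigned to complex I and grouped there by its symbol, is now counted as a complex IV subunit. Cox4i2, the lung- and hypoxia-associated form of subunit 4, was above background on 0 arrays. So were Cox6a2, the heart and muscle form of subunit 6a, and Cox8c, a testis form of subunit 8.

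The other tissue forms were near the detection limit. Cox7a1, the heart and muscle form of subunit 7a, was above background on 3 arrays, and Cox7b2, a paralog of Cox7b, on 2. Cox6b2, the testis form of subunit 6b, had 1 probe above background on 4 arrays and another on 2. Cox8b, a muscle form of subunit 8, was detected on 8. Cox7a2, the widely expressed partner of Cox7a1, was detected on 4 arrays only, fewer than Cox8b.

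Probes just inside and just outside the limit show how thin the filter is. Cox7a1, at 3 arrays, gave 4.27, 6.12 and 4.69 log2 signal in Hom int pop, 7.20, 5.55 and 4.29 in Hom Mph, and 4.48, 4.54 and 4.48 in Het Mph. Ndufab1, the mitochondrial acyl carrier protein, was above background on 2 arrays and left out, with 4.23, 4.39 and 4.36 in Hom int pop, 6.29, 6.10 and 4.53 in Hom Mph, and 4.21, 4.26 and 4.23 in Het Mph. Cox7a1 was thus bright on 2 Hom Mph arrays and 1 Hom int pop array, and Ndufab1 on 2 Hom Mph arrays, with the third Hom Mph array low in both. The other genes without a passing probe were Ndufs1, an iron-sulfur core subunit of complex I, and Uqcrq, a small subunit of complex III, both at 0 arrays. The remaining probes that failed belonged to genes with another passing probe, such as Ndufb4 and Sdha. A probe below background gives a bound on its own signal only, and its gene may still be expressed. Ndufb8, for example, had 1 probe above background on 0 arrays and another on 9.

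**Figure D3:**
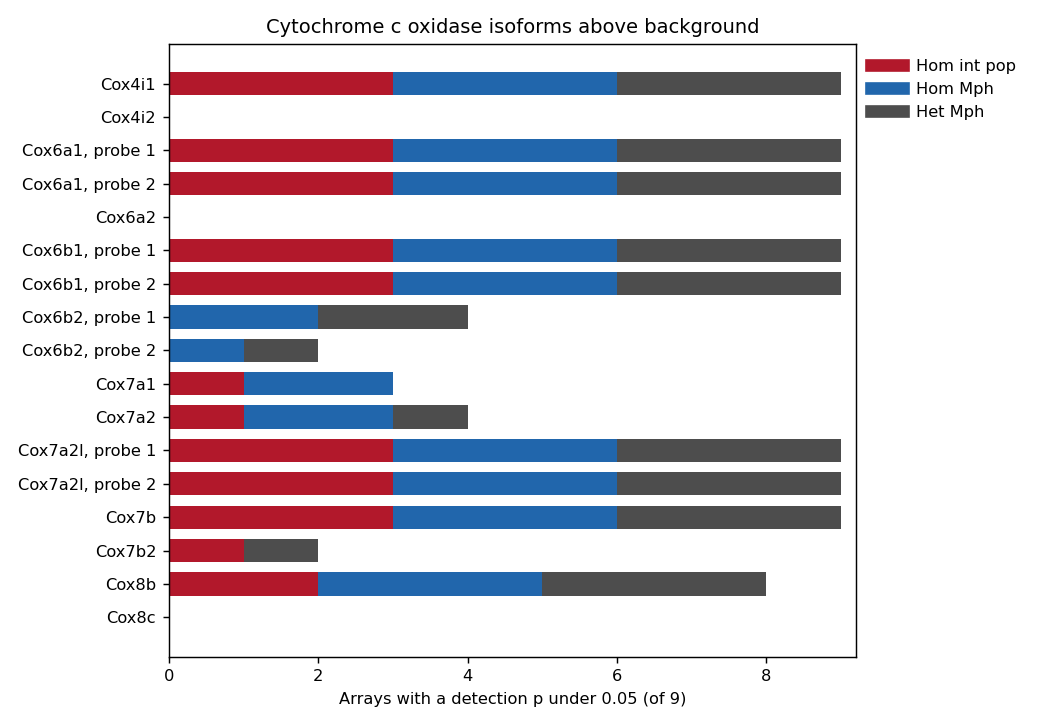
Number of arrays, of 9, on which each probe of a complex IV isoform gene lay above background (detection p under 0.05), stacked by group. Cox4i1, Cox6a1, Cox6b1, Cox7a2l and Cox7b reach 9, and Cox4i2, Cox6a2 and Cox8c stay at 0.

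Promoters from RefSeq (GRCm38.p6), 250 bases before to 50 after the start of the gene, were matched for 65 of the member genes. Respiratory chain promoters are known for sites of NRF1, of ETS-family factors such as GABP and of YY1. The letters searched, on both strands, were TGCGCA for the NRF1 core, CCGGAAG for ETS, AGATGGC for YY1 and AAGGTCA for the ERR family. NRF1 letters were in 26.2% of the 65 promoters and in 8.06% of 27025 promoters of all genes. ETS letters were in 23.1% against 9.12%, YY1 letters in 16.9% against 6.45%, and the ERR site in 10.8% against 4.66%. At least 1 of the first 3 motifs was in 53.8% against 21.1%. The subunit promoters also had a higher GC content, with a median of 58.3% against 52.7%, and the part of base composition in these shares was not tested. None of the 4 motifs is contained in another, though matches can share bases, and a match is a description, not a site.

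The promoters of 4 genes show the range. Cox6b1 and Cox6b2 are shown as a widely expressed and a testis form with 9 and 4 detected arrays, and Atp5j2 and Atp5l as 2 membrane subunits of ATP synthase whose signals are described further on. Matches are in capitals, on either strand, and each sequence runs 5′ to 3′ along its gene.
Cox6b1, chr7:30626065-30626364, minus strand: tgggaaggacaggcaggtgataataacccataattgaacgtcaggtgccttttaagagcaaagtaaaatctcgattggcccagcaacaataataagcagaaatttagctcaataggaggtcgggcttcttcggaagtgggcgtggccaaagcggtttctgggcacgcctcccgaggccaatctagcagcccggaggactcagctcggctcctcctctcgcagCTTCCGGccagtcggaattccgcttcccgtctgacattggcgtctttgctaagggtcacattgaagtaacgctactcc
Cox6b2, chr7:4753045-4753344, minus strand: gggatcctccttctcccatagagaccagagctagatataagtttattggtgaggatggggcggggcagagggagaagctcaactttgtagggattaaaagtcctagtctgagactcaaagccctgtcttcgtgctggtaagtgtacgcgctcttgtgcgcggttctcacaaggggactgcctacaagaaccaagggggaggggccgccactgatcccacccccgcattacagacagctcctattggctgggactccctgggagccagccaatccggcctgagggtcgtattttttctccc
Atp5j2, chr5:145191492-145191791, minus strand: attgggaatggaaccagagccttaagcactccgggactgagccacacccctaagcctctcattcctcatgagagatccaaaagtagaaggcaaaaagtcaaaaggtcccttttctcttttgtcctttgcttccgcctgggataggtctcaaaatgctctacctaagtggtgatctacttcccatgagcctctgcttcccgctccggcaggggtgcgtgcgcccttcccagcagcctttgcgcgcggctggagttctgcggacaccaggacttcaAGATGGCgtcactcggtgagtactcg
Atp5l, chr9:44920693-44920992, minus strand: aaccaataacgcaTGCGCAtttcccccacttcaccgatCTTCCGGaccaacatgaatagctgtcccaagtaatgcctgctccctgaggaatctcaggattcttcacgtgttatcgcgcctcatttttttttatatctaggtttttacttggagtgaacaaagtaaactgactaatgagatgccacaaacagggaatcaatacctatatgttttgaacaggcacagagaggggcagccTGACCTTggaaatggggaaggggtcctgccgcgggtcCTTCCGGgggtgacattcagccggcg
Cox6b1 holds 1 match, to ETS, Atp5j2 holds 1, to YY1, and Atp5l holds 4, to NRF1, ETS and the ERR site. Cox6b2 holds 0 in this window, which says only that these letters are not there.

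The extremes of each complex were taken among probes with at least 1 array above background in both groups. In complex I they were dim or variable probes. Ndufa5, an accessory subunit, had the highest difference from Het Mph, with 6.82, 7.02 and 5.24 log2 signal in Hom int pop against 6.02, 4.93 and 5.24 in Het Mph, a difference of 0.96 (95% interval -0.12 to 2.04). The third Hom int pop array lay within the Het Mph range, so the groups overlapped, and the other Ndufa5 probe, detected on 9 arrays, differed by -0.095. Ndufa8, another accessory subunit, had the lowest, with 7.65, 7.76 and 7.78 in Hom int pop, 9.29, 8.00 and 8.01 in Hom Mph and 8.63, 8.93 and 7.40 in Het Mph. Its difference was -0.70 (-1.75 to 0.34) from Hom Mph and -0.59 (-1.64 to 0.46) from Het Mph. The other Ndufa8 probe went the other way from Het Mph, by 0.37 (-0.26 to 0.99) with all Hom int pop arrays higher, and differed by -0.0029 from Hom Mph. Ndufc1, a membrane-arm subunit, ranged more widely within Hom Mph (8.49, 6.96 and 6.24) than between groups, and its difference from Hom Mph, the highest of complex I, was 0.49 (-0.97 to 1.94).

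Complex II was measured by 6 probes of its 4 subunits. Sdha, the flavoprotein that oxidises succinate, gave 7.89, 7.55 and 7.14 in Hom int pop, 7.50, 7.87 and 7.41 in Hom Mph and 7.00, 8.20 and 8.21 in Het Mph. The 3 groups overlapped throughout, and the difference from both controls was -0.17 (-0.92 to 0.57). Sdhd, a membrane anchor, gave 9.66, 9.57 and 9.80 in Hom int pop, 9.58, 9.48 and 9.29 in Hom Mph and 9.68, 9.57 and 9.81 in Het Mph, with a difference of 0.10 (-0.37 to 0.58). The Hom int pop values lay inside the range of the control arrays.

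Sdhc, the other anchor, had 2 probes that disagreed. The bright one gave 11.43, 11.21 and 11.12 in Hom int pop, 11.51, 11.31 and 11.35 in Hom Mph and 11.36, 11.40 and 11.43 in Het Mph, a difference of -0.14 (-0.61 to 0.33) from both controls. The dim one, above background on 6 arrays, gave 6.51, 5.92 and 6.41 in Hom int pop, 6.04, 4.70 and 5.08 in Hom Mph and 5.46, 4.51 and 6.13 in Het Mph. Its difference of 0.96 (0.044 to 1.88, adjusted p = 0.39, limma) was the highest of the 103 probes in that comparison and the only one past an unadjusted p of 0.05. Sdhb, the iron-sulfur subunit, differed by 0.28 (-0.51 to 1.08) on the probe detected on 9 arrays and by 0.71 (-0.41 to 1.83) on the one detected on 4.

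In complex III, Cyc1, the cytochrome c1 that hands electrons to cytochrome c, gave 6.85, 7.18 and 6.14 in Hom int pop, 7.16, 6.54 and 6.98 in Hom Mph and 7.06, 7.22 and 6.12 in Het Mph. Its spread within each group exceeded the difference from both controls, -0.12 (-0.88 to 0.64). Uqcrc1, a core protein of the matrix arm, gave 9.12, 8.63 and 9.02 in Hom int pop, 9.84, 9.61 and 9.29 in Hom Mph and 9.06, 8.92 and 9.09 in Het Mph. Here Hom Mph was the group apart: all its arrays were above all others, with a difference of -0.66 for Hom int pop minus Hom Mph (-1.27 to -0.046, adjusted p = 0.61, limma) and of 0.56 for Hom Mph minus Het Mph (-0.054 to 1.17). Uqcrfs1, the Rieske iron-sulfur protein, differed by -0.48 (-1.16 to 0.20) from Het Mph. Uqcrh, the hinge protein, was the highest against Het Mph at 0.050 (-0.56 to 0.66), and Uqcrb, a small subunit, was the highest against Hom Mph at 0.53 with a standard error of 0.43.

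In complex IV, Cox4i1, the widely expressed form of subunit 4, gave 10.56, 10.64 and 10.84 in Hom int pop, 10.45, 10.64 and 10.75 in Hom Mph and 10.54, 10.65 and 10.73 in Het Mph. The groups overlapped, though Hom int pop replicate 3 was above all control arrays, and the difference from both controls was 0.054 (-0.43 to 0.53). The 2 Cox6a1 probes differed by -0.077 (-0.56 to 0.40) and 0.066 (-0.41 to 0.54), and the 2 Cox6b1 probes by -0.20 (-0.66 to 0.27) and -0.21 (-0.66 to 0.25). Cox7a2l, which is implicated in joining complexes III and IV into supercomplexes, differed by 0.18 (-0.29 to 0.64) and 0.25 (-0.25 to 0.75), both probes on the higher side.

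The isoforms near background gave larger and less certain differences. Cox6b2 was above background on 0 of 3 Hom int pop arrays, 2 of 3 Hom Mph arrays and 2 of 3 Het Mph arrays, with mean signals of 4.89, 5.40 and 5.93 on the log2 scale. For a group with 0 arrays above background, a ceiling was taken on each array. It was the lowest signal of a probe above background, or the probe's own signal where higher. The brighter group kept its plain mean, arrays below background included, so the resulting fold is an estimate and not a strict minimum. By this estimate the Cox6b2 mean was 1.97-fold lower in Hom int pop than in Het Mph, with an adjusted p of 0.36 (limma). This Cox6b2 probe was 1 of the 2 probes past an unadjusted p of 0.05 in that comparison, the other being Ndufs7. Without Het Mph replicate 3 the estimate was 1.52-fold, and against Hom Mph it was 1.36-fold. The dimmer Cox6b2 probe gave no such estimate. On the probe described here the groups overlapped, with Het Mph replicate 1 at 4.99 and Hom int pop replicate 1 at 5.05. The limma interval of its log2 difference from Het Mph was -2.05 to -0.021. Its difference from both controls, -0.77, was -0.18 without background correction and -0.20 in the authors' deposited normalized table. Cox7a1 was above background on 2 of 3 Hom Mph arrays and 0 of 3 Het Mph arrays. It was 1.71-fold higher in Hom Mph by the same estimate, with an adjusted p of 0.84 (limma). That estimate rested on Hom Mph replicate 1, being 1.01-fold without it, and the third Hom Mph array was below all Het Mph arrays. Cox8b differed by -0.74 (-1.77 to 0.30) from Het Mph and Cox7a2 by -0.28 (-1.43 to 0.87) from both controls.

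In complex V, Atp5b, the catalytic beta subunit, gave 10.86, 10.63 and 10.67 in Hom int pop, 10.86, 10.71 and 10.80 in Hom Mph and 11.15, 10.79 and 10.84 in Het Mph, and the groups overlapped. The c-ring genes differed little from both controls, Atp5g2 by -0.0042 (-0.51 to 0.50) and Atp5g3 by -0.20 (-0.72 to 0.32). Atp5j, coupling factor 6 of the stalk, had the highest difference from Het Mph on a probe detected on 7 arrays, 1.14 (-0.68 to 2.96), with Hom Mph arrays at 7.77, 4.42 and 5.40, while its other 2 probes differed by 0.29 and -0.064. Atp5o, the subunit that joins the stalk to the catalytic head, had the lowest difference from Het Mph, -0.60 (-1.32 to 0.11), and Atp5pb, the stalk b subunit, had the lowest from Hom Mph, -0.57 (-1.22 to 0.090). Other probes of these genes were closer to 0, by -0.17 and -0.29 from Het Mph for Atp5o and by -0.38 and -0.090 from Hom Mph for Atp5pb.

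Array by array, 6 subunit probes had all 3 Hom int pop values below all 6 control values, and 0 had all above. That is 5.83% of the 103 probes, beside 2.98% of all probes lower and 3.28% higher; among probes above background on all arrays it is 6.67% of 90 beside 3.38%. The 6 were picked out after their values were seen, and none passed the adjusted test, so they are described only. They belong to Ndufa3, an accessory subunit of complex I, Ndufa4, Cox6b1, a peripheral subunit of complex IV, and 3 small membrane subunits of ATP synthase, Atp5j2 (subunit f), Atp5l (subunit g) and Atp5mpl (a small proteolipid).

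Ndufa4 gave 9.98, 10.08 and 10.08 log2 signal in Hom int pop, 10.58, 10.40 and 10.27 in Hom Mph and 10.43, 10.56 and 10.52 in Het Mph. Hom int pop minus both controls was -0.42 (-0.88 to 0.052, adjusted p = 0.46, limma). All 3 Hom int pop arrays lay close together, and the control groups overlapped each other. Ndufa3 gave 9.34, 9.28 and 9.43 in Hom int pop, 10.03, 9.97 and 9.79 in Hom Mph and 9.65, 9.46 and 9.70 in Het Mph, a difference of -0.42 (-0.89 to 0.055). The other Ndufa3 probe overlapped in every comparison, with -0.14 from both controls and -0.064 for Hom Mph minus Het Mph. From Hom Mph alone the separated Ndufa3 probe differed by -0.58 (-1.12 to -0.034), which with Uqcrc1 made the 2 probes past an unadjusted p of 0.05 in that comparison. Between Hom int pop and Het Mph the gap of the nearest arrays of this Ndufa3 probe was narrow, 9.43 against 9.46. Its Hom Mph arrays were above its Het Mph arrays as well.

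Atp5j2 gave 10.58, 10.58 and 10.56 in Hom int pop, 10.84, 11.06 and 11.06 in Hom Mph and 10.94, 10.83 and 11.03 in Het Mph, a difference of -0.38 (-0.85 to 0.079). Atp5mpl gave 9.80, 9.81 and 9.91 in Hom int pop, 10.12, 10.40 and 10.46 in Hom Mph and 10.05, 10.22 and 10.31 in Het Mph, a difference of -0.42 (-0.90 to 0.059). In both, the control groups overlapped each other and Hom int pop lay apart. Atp5l gave 10.15, 10.04 and 10.18 in Hom int pop, 10.22, 10.37 and 10.48 in Hom Mph and 10.52, 10.32 and 10.50 in Het Mph, a difference of -0.28 (-0.75 to 0.19). The second Cox6b1 probe gave 10.26, 10.23 and 10.25 in Hom int pop, 10.43, 10.35 and 10.42 in Hom Mph and 10.56, 10.58 and 10.41 in Het Mph. The other Atp5l probe and the first Cox6b1 probe overlapped the controls, with differences of -0.22 and -0.20. Further membrane subunits of ATP synthase overlapped the 6 control arrays, Atp5md with a difference of -0.10 and the 2 Atp5k probes with -0.056 and 0.088, though 1 Atp5k probe had all Hom int pop arrays below all Het Mph arrays.

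**Figure D4:**
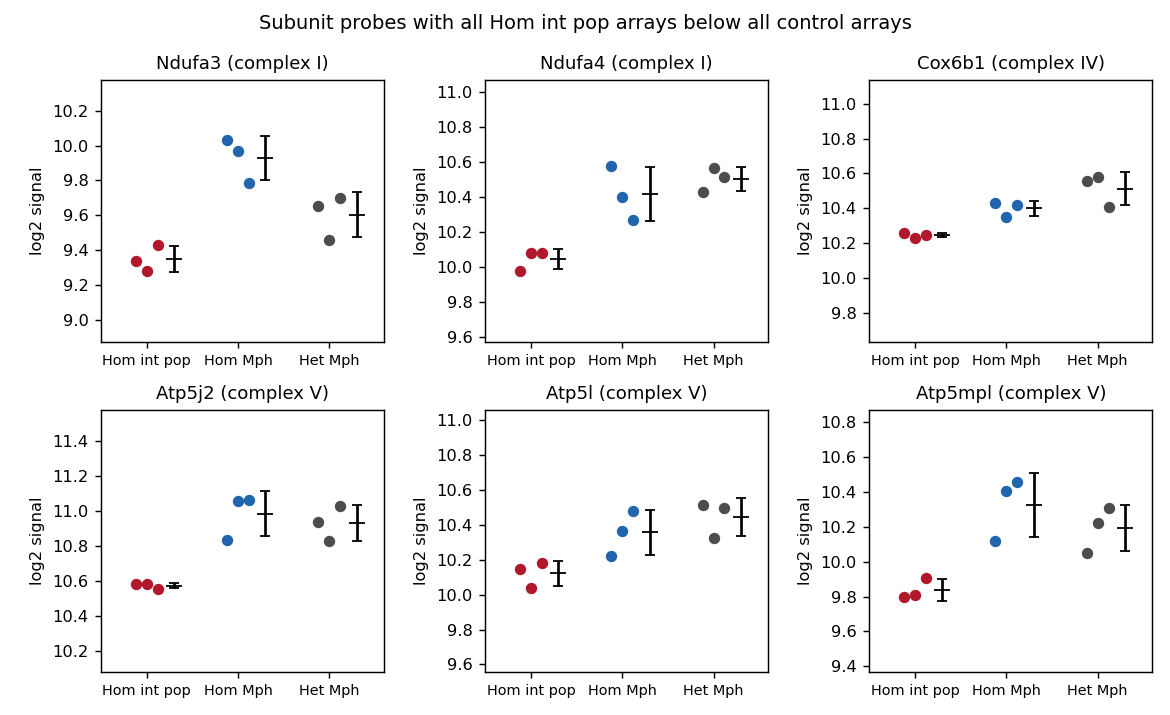
Log2 signal on each array for the 6 subunit probes whose 3 Hom int pop arrays lay below all 6 control arrays, with group mean and SD (n = 3). Each panel spans 1.5 log2 units; Atp5j2, for example, sits near 10.6 in Hom int pop and between 10.83 and 11.06 in the controls.

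Hom Mph and Het Mph, both labelled wild type, gave 6 subunit probes with all Hom Mph arrays above all Het Mph arrays and 5 with all below. These are 5.83% and 4.85% of the 103 probes, beside 5.46% and 6.7% of all probes. Those above were probes of Ndufa3, Ndufa5, Ndufa10, Ndufs7, Ndufs8 and Uqcrc1, and those below were 2 of the 4 probes of Ndufs4 and probes of Cox6c, Cox7b and Atp5o. In all, 5 probes passed an unadjusted p of 0.05, those of Ndufa5, Ndufs3, Ndufs7, Ndufs8 and Atp5o, and were named for that after the values were seen. Ndufs3, Ndufs7 and Ndufs8 are core subunits of the matrix arm of complex I. Of the other core subunits of that arm, Ndufv1 differed by 0.20 and Ndufv2 by -0.11, both with overlapping groups. Ndufs1 was above background on 0 arrays.

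Ndufs7 gave 7.84, 7.92 and 8.06 in Hom Mph and 7.19, 7.22 and 6.73 in Het Mph, 0.90 higher (0.13 to 1.66, adjusted p = 0.74, limma). Ndufs8 gave 9.01, 9.33 and 9.00 in Hom Mph and 7.94, 8.89 and 7.94 in Het Mph, 0.85 higher (0.11 to 1.59). Neither pair of groups overlapped. Ndufs3 gave 7.47, 5.99 and 7.18 in Hom Mph and 5.42, 6.16 and 5.87 in Het Mph, and the groups overlapped. One Atp5o probe gave 5.26, 5.11 and 5.27 in Hom Mph and 6.61, 6.16 and 5.76 in Het Mph, a difference of -0.96 (-1.72 to -0.20), while the other 2 Atp5o probes, both detected on 9 arrays, differed by -0.30 (-1.02 to 0.41) and -0.035. The dim Ndufa5 probe was 1.11 higher in Hom Mph (0.030 to 2.19), and its other probe differed by 0.023. Against Het Mph, Ndufs7 was also apart in Hom int pop, at 8.50, 7.27 and 7.89, by 0.84 (0.076 to 1.61, adjusted p = 0.33), a comparison that shares the Het Mph arrays.

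Other mitochondrial genes, from lists chosen with earlier results of these data known, gave the same count. In each of the 4 comparisons, 0 probes were called among 36 for assembly factors, 24 for the TCA cycle and pyruvate dehydrogenase, 15 for regulators of mitochondrial gene expression, 100 for mitochondrial ribosomal proteins, 38 for import and pores and 15 for carriers and electron transfer. Of all probes, 0.0228% to 1.02% were called, shares at which lists of these sizes would hold about 1 call or none. The only probe of a mitochondrial DNA gene, mt-Atp6, differed by 0.083 from both controls. List medians against both controls ran between -0.11 for import and pores and 0.074 for mitochondrial ribosomal proteins, beside -0.069 for all probes.

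Within the carriers, the electron transfer flavoprotein, which feeds electrons of fatty acid oxidation to ubiquinone, is described here after its values were seen, in a list with a median of 0.042 and 7 of 15 probes below 0. The summed signal of that list, in which bright probes weigh most, was 9236 to 9403 in Hom int pop. It was 10008.5 to 12166 in Hom Mph and 11392 to 11912 in Het Mph. Both Etfb probes and 1 of 3 Etfa probes had all Hom int pop arrays below all control arrays, with differences of -0.49, -0.56 and -0.50, and none passed the adjusted test (adjusted p = 0.41, 0.34 and 0.39, limma). Of all probes, 2.98% were apart in this way. The other 2 Etfa probes differed by -0.42 and -0.28 and overlapped, and the 2 probes of Etfdh, the enzyme that takes up its electrons, differed by 0.18 and, on a probe detected on 4 arrays, 0.91. Of the regulators, Ppargc1a was above background on 0 arrays. Nrf1 differed by -1.11 with a standard error of 0.70, and the 3 probes of Gabpa, an ETS-family factor, by 0.55, -0.47 and 1.42, so they disagreed in sign.

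**Figure D5:**
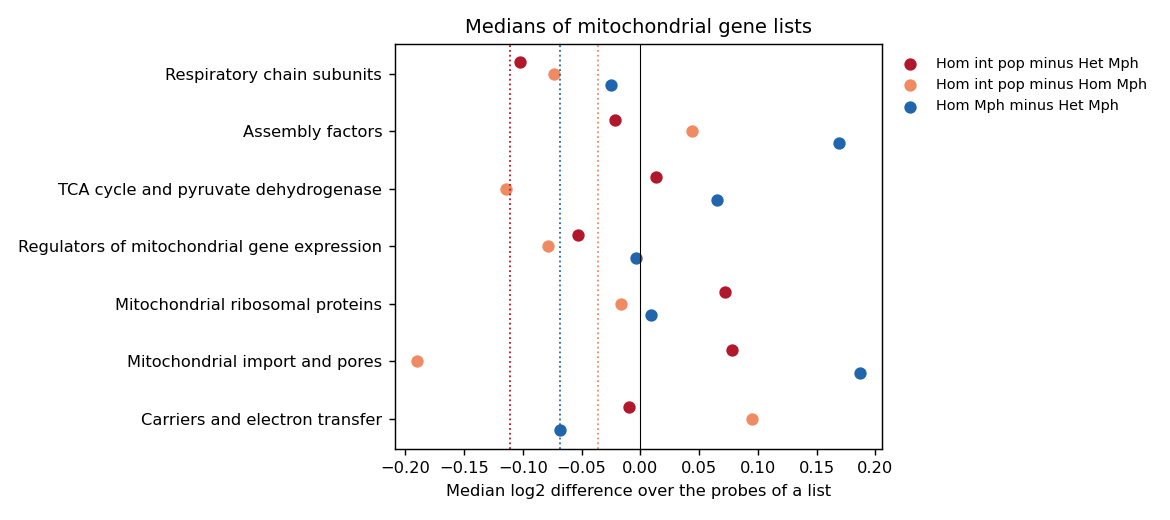
Median log2 difference over the probes of the respiratory chain and of 6 other mitochondrial gene lists, in 3 comparisons. Dotted lines are the medians of all probes in the same comparison; every list median lies within 0.2 of 0.

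Pparg itself, on its probe with the highest signal, was 7.58, 7.23 and 7.76 in Hom int pop, 9.71, 9.15 and 8.13 in Hom Mph and 9.46, 9.36 and 9.55 in Het Mph. Its difference from both controls was -1.70 (adjusted p = 0.065, limma), and the other 2 Pparg probes differed by -0.82 and -1.58. The sources used here do not say whether these probes lie in the deleted part. The alveolar macrophage markers Marco and Siglecf, whose protein was used in the sort, were lower in Hom int pop than in both controls, with differences of -2.46 and -1.93 (adjusted p = 0.025 and 0.022, limma), the 2 called of 15 probes in a list with a median of -0.016 and 8 probes below 0. Fabp4, another marker of these cells, was above background on 0 arrays. The summed signal of the 15 probes of this list was 18217 to 18743 in Hom int pop, 18860 to 20567 in Hom Mph and 17789 to 19826 in Het Mph. Among monocyte and interstitial macrophage markers, C1qb was higher by 3.50 (adjusted p = 0.014), the 1 called of 7 probes in a list with a median of 1.31 and 0 probes below 0, and the summed signal of the 7 probes was 1979 to 3869 in Hom int pop, 1073 to 1726 in Hom Mph and 604 to 810 in Het Mph. Ccr2 and F13a1 were above background on 0 arrays. Among the lists of other cell types, Hopx, an epithelial gene by its list, was the only one called against both controls, with a difference of 2.15 (adjusted p = 0.010), in a list of 7 probes with a median of -0.032 and 4 below 0. The list of red cells and platelets had 0 of 8 probes called and 1 below 0. Its summed signal was 694 to 1072 in Hom int pop, 476 to 576 in Hom Mph and 521 to 602 in Het Mph. The part of these cells in the subunit values was not tested. Arrays had 37.8% to 42.5% of probes above background and 96 to 103 of the 103 subunit probes.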

How the data were processed

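The authors deposited a table of non-normalized probe intensities, named so in the file headers, with detection p-values, also deposited. The sources used here do not give the method of the p-values. Per the labels' protocols, whole-transcriptome amplification preceded biotin labelling. A normalized intensity table, likewise deposited by the authors, served as an alternative. Background was corrected by normexp in limma 3.58.1 (R 4.3.3), with an offset of 16 and negative control values estimated through the detection p-values, then arrays were quantile normalized and log2 transformed. Of 46237 probes, 21946 had a detection p under 0.05 on at least 3 arrays. The lmFit and eBayes functions fitted 1 mean per group to the 9 arrays, and calls were made at an adjusted p (Benjamini-Hochberg over 21946 probes) under 0.05. Intervals are at 95%. The fit was tested on simulated data.

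Subunit symbols were updated through gene identifiers (102 probes), accessions (9) or an older name (1) from RefSeq (GRCm38.p6), while 8 stayed as annotated. The files name no genome build. For genes with several listed promoters the first was used. The levels of different probes are not compared. The subunits and gene lists were chosen with earlier results of these data known. Named with values were the extremes of each complex against Het Mph and Hom Mph (with at least 1 array above background in both groups), the isoform sets of complexes I, IV and V, complex II, Cyc1, Pparg and called markers, and probes named beyond these are said to be chosen after their values were seen or given as examples of a list. Alternatives varied the background correction, normalization, filter, probe choice, samples in the fit, replicate block and each array.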

Additional observations from a re-analysis of the deposited data

How the results depend on the processing

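Across the main analysis and 18 alternatives in 4 comparisons, 76 fits in all, 0 subunit probes were called in any, and the smallest adjusted p of a subunit was 0.11, while up to 2.31% of all probes were called. The number of subunit probes past an unadjusted p of 0.05 was 11 or 12 of 120 without the filter on dim probes, and between 0 and 9 in every other fit. The share of all probes past that p was taken in the main analysis only. Calls over all probes numbered 151 against both controls, with 26 to 407 under the alternatives, 224 against Het Mph, with 52 to 508, 38 against Hom Mph, with 2 to 90, and 5 between Hom Mph and Het Mph, with 1 to 17. The lowest count against both controls came without Hom int pop replicate 1 and the highest without background correction. Hom Mph and Hom int pop share the names Hom1 to Hom3, but whether these are the same mice is not stated, and the check by correlation did not settle a pairing: deviations from the group means correlated by -0.063 to 0.23 between arrays of the same number, above 0.1 for numbers 1 and 3 and below it for number 2 in each pair of groups. Of 6 samples in a pair of groups, 3 or 4 correlated best with their own number. With the replicate block 0 subunits were called in each comparison, and the calls over all probes were 113 against both controls, 163 against Het Mph, 25 against Hom Mph and 3 between Hom Mph and Het Mph. Without normalization between arrays the subunit median was -0.17 against both controls, -0.21 against Hom Mph and 0.077 for Hom Mph minus Het Mph, where the medians of all probes shifted to -0.29, -0.22 and -0.15. Hom int pop against Het Mph gave -0.12 there, where all probes gave -0.37. In that setting the subunit median was within 0.05 of that of all probes only against Hom Mph. Against Het Mph the median was -0.071 without background correction, -0.056 in the deposited table and -0.14 to -0.066 with 1 array left out. For Hom Mph minus Het Mph it was 0.016 in the deposited table and -0.053 to 0.0033 with 1 array left out, above 0 without Hom Mph replicate 3. Of 844 values of named probes under the alternatives, 832 kept their direction and 12 changed sign, and the cause was not tested. As 0 subunit probes were called in any fit, all these values lay on the same side of the threshold. A named probe that an alternative left out, by its filter or probe choice, gave no value there. With 1 array left out, the ranges that crossed 0 were -0.027 to 0.12 for Cox4i1, -0.13 to 0.0055 for Cox6a1, -0.41 to 0.33 for Cox7a1, -0.82 to 0.11 for Cox7a2, -0.12 to 0.11 for Atp5g2, -0.37 to 0.024 for Sdha, -0.34 to 0.17 for Cyc1 and -0.0039 to 1.07 for Ndufc1 against Hom Mph, the others being against both controls. The sign turned without Hom int pop replicate 3 for Cox4i1, Cox6a1, Cox7a1, Sdha and Cyc1, without Hom int pop replicate 1 for Cox7a1 and Atp5g2, without Hom int pop replicate 2 for Cox7a2, without Hom Mph replicate 1 or Het Mph replicate 3 for Atp5g2, and without Hom Mph replicate 3 for Ndufc1. Sdhb on its brighter probe gave -0.090 without normalization. Keeping the direction does not mean keeping the size: Cox6b2 against both controls was -0.77 as reported and -1.0 to -0.18 across the alternatives, lowest without Het Mph replicate 1 and highest without background correction. The detection limit sets what can be said of Cox6b2, Cox7a1 and Ndufab1.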
